A study of Homo sapiens with 3 samples.

Results

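Enzymes that write and erase histone marks, and proteins that read them, were followed through a knockdown of WDR5 in BE(2)-C cells, a human neuroblastoma line with an amplified MYCN gene. The genes were taken by symbol from the array's annotation: KDM, KAT followed by a digit, KANSL, HDAC, SIRT, PRMT, SETD, EHMT, KMT5, NSD, SUV39, EZH, PHF, or BRD followed by a digit. KDM6A, KDM5D, the KMT2 genes, pseudogenes and antisense or divergent transcripts were left out. This gave 96 genes of the 14884 with a symbol, and all 96 are protein-coding. By their known roles 38 were classed as writers, 37 as erasers and 19 as readers, and 2 fit none of these classes (NSDHL and PHF5A). The writers include 4 KANSL genes, which encode complex subunits or their paralog. They also include 3 SET domain proteins with mainly other substrates or an unsettled role. The symbols let in SETD1A, an H3 lysine 4 methyltransferase of the COMPASS family, to which WDR5 itself belongs.

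The 3 samples were cultures of that line transfected for 40 hours with a control siRNA, with WDR5 siRNA-1 or with WDR5 siRNA-2, and each was measured on 1 HuGene-2_0-st array. No untransfected culture was analysed here, so all groups carry the transfection. With 1 array per group there is no replicate and no test, so each difference is one between 2 arrays and carries no error. Nor can fewer cells of a kind and less RNA per cell be told apart in such bulk samples. The ratios of both WDR5 siRNAs were taken against the same control array and are therefore not independent of each other.

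Writers add acetyl or methyl groups to histone tails, erasers remove them, and readers bind the modified tail through bromodomains, which recognise acetyl-lysine, or PHD fingers, many of which recognise methyl-lysine. Acetylation by KAT enzymes is associated with open chromatin and is removed by histone deacetylases and sirtuins. WDR5 is best known as a scaffold of the H3 lysine 4 methyltransferases, and it is also a subunit of the NSL and ATAC acetyltransferase complexes, whose other subunits include several genes of this set.

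WDR5 stood at a log2 level of 9.46 on the control array and at 7.90 on each of the WDR5 siRNA arrays, 2.95-fold lower. The WDR5 siRNA arrays hold the same WDR5 value to the last digit, 7.9006. This is a tie of the unexplained kind described below, so the equal fold is not independent agreement between the siRNAs. Of 7 marker genes of noradrenergic neuroblastoma 6 were measured, with control levels from 7.29 (TH) to 11.6 (HAND2). DBH was the one of them past 1.5-fold (10.39, 9.58 and 10.90 on the control, siRNA-1 and siRNA-2 arrays). S100B and SOX10 of Schwann cells read 6.83 and 6.96 on all 3 arrays, CD68 of macrophages 7.75, 8.14 and 7.83, and PECAM1 of endothelium 4.29, 4.88 and 5.12. Their part in the results was not tested. The 23 background rows of the array ran from 1.75 to 9.26 (median 4.61) and no detection call was made, so a level below 9.26 does not by itself show expression. A gene was kept when its mean level reached 6.78, the median of all named genes, which left 7442 genes and 89 of the 96 members. Only 23 of these 89 had a mean above the highest background row. Many deposited values are identical on different arrays to the last digit: 17 of the 89 members (19.1%) and 14.88% of all kept genes had 1 value on all 3 arrays. With each WDR5 siRNA, 25 of the 89 tied exactly with control, beside 23.66% (siRNA-1) and 25.73% (siRNA-2) of all kept genes. The source of the ties is not given, so a tie is not a measured lack of change. Levels of different probe sets are not comparable as amounts of RNA, so each gene is compared only with itself.

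Few members differed by as much as 1.5-fold, the limit used here, and none reached 2-fold among those kept. With siRNA-1, 1 member was at least 1.5-fold higher than control (KDM3A), against 2.24% of all kept genes, and 3 were lower (PRMT6, PHF10 and BRD3), against 4.60%. With siRNA-2, 1 was higher (NSDHL), against 2.19%, and 3 were lower (KAT14, KDM7A and PHF20L1), against 4.00%. The 4 calls in each comparison make 1.12% of the 89 members higher and 3.37% lower, shares no larger than the background. The median log2 ratio of the members was 0.00 under siRNA-1 and -0.02 under siRNA-2, and that of all kept genes was 0.00 with both.

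**Figure D1:**
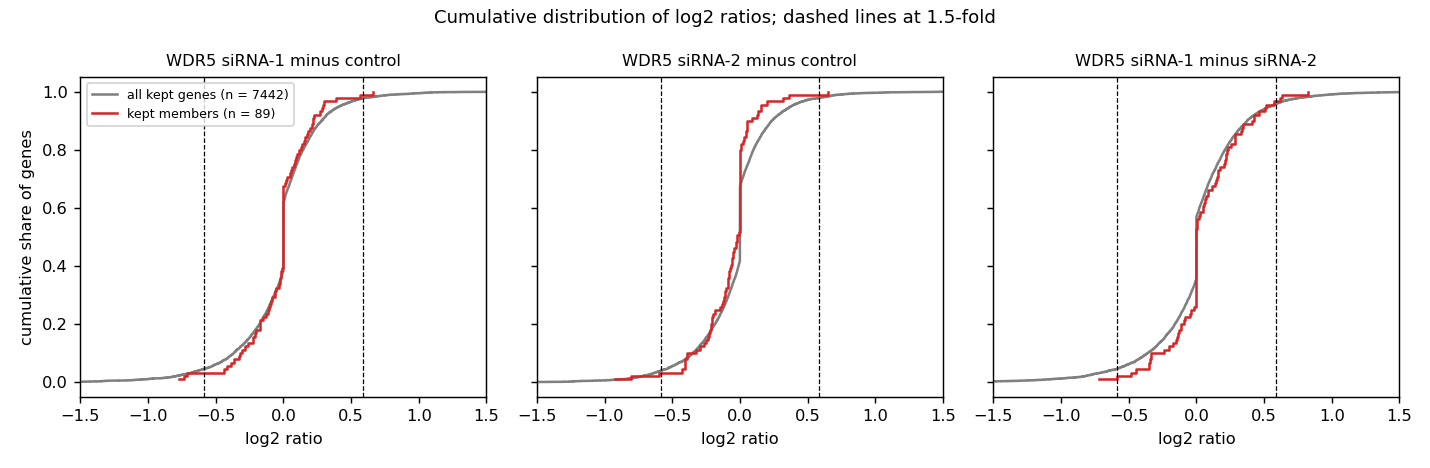
Cumulative share of genes (vertical axis) at or below each log2 ratio (horizontal axis) for the 89 kept members and all 7442 kept genes, in the 3 comparisons. Both curves have a step at 0 from identical values (25, 25 and 23 of the 89 members). They part most visibly under siRNA-2, where 46 of 89 members lay below 0 and 18 above, beside 3098 and 2429 of 7442 genes.

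The lysine acetyltransferases gave the lowest ratio of the kept members. KAT14, the second acetyltransferase of the ATAC complex, read 8.46 with control siRNA, 8.36 under siRNA-1 and 7.54 under siRNA-2. It was thus 1.90-fold lower under siRNA-2 and close to control under siRNA-1 (log2 ratio -0.10). KAT6B, of the MOZ/MORF family, read 8.80, 9.36 and 8.85, and its 1.48-fold higher level under siRNA-1 lay just below the limit. The paralogs KAT2A and KAT2B (GCN5 and PCAF), occupy the same position in SAGA and ATAC and had different profiles. KAT2A read 9.93, 9.56 and 9.90 and was lower than control under siRNA-1 (-0.37). KAT2B read 7.55, 7.33 and 7.91, so that siRNA-2 gave its highest and siRNA-1 its lowest value. Of the rest, KAT5 (TIP60), KAT7 (HBO1) and KAT8 (MOF) had log2 ratios from -0.22 to 0.13. KAT8, the NSL and MSL enzyme, was the one of them with nearly equal values on the WDR5 siRNA arrays, at 8.62 with control and 8.41 and 8.40.

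The KANSL genes encode scaffold subunits of the NSL complex or their paralog. All 4 read higher under siRNA-1 than under siRNA-2, by log2 differences of 0.22 to 0.63. KANSL1L, a paralog of the scaffold KANSL1, read 7.46, 7.68 and 7.05 and was 1.55-fold higher under siRNA-1 than under siRNA-2. KANSL1 read 10.52, 10.72 and 10.46. KANSL2 read 8.18, 8.40 and 8.18, and its siRNA-2 value tied exactly with control. KANSL3 differed from control almost only under siRNA-2 (7.76, 7.76 and 7.47).

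The 16 lysine methyltransferases had none at 1.5-fold and log2 ratios from -0.26 to 0.27 under siRNA-1 and from -0.43 to 0.13 under siRNA-2. Of all kept genes 2.24% were called higher and 4.60% lower under siRNA-1, and 2.19% and 4.00% under siRNA-2. For 16 genes a count of 0 is near those shares. EZH2, the catalytic subunit of Polycomb repressive complex 2 (PRC2), had the lowest ratio under siRNA-2, at 10.64, 10.56 and 10.21 on the control, siRNA-1 and siRNA-2 arrays. Its paralog EZH1 read 9.41 and then 9.31 on each of the WDR5 siRNA arrays. SETD5, a SET domain gene linked to neurodevelopment, had the lowest ratio under siRNA-1 (-0.26, from 9.50 to 9.24) and was at -0.12 under siRNA-2. KMT5B, which methylates histone H4, had the highest ratio with each (0.27 and 0.13). Genes of constitutive heterochromatin and of the G9a pair lay close to control. SUV39H1 was tied at 8.69 on all 3 arrays. SUV39H2 had ratios of -0.06 and -0.11, EHMT1 of -0.02 and 0.00, and EHMT2 of -0.06 and -0.15. SETD1A also had the same value, 8.50, on all 3 arrays. The NSD enzymes, which methylate histone H3, ranged from -0.18 (NSD1 under siRNA-1) to 0.10 (NSD3 under siRNA-1).

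Among SET domain proteins with mainly other substrates or an unsettled role, SETD6 had a ratio of 0.28 under siRNA-1 and 0.00 under siRNA-2, while SETD9 had 0.00 and -0.41. SETD3, an actin histidine methyltransferase whose 11.06 was the upper end of the writers' control levels, read 11.17 and 10.94 with the WDR5 siRNAs, and SETD9 marked the lower end at 6.96, 6.96 and 6.55. Arginine methyltransferases included the lowest ratio under siRNA-1. PRMT6, which places an asymmetric arginine mark on H3 that opposes lysine 4 methylation, read 10.06 with control, 9.29 under siRNA-1 and 10.01 under siRNA-2. It was 1.71-fold lower under siRNA-1, and the control and siRNA-2 arrays differed by a log2 ratio of only -0.05. PRMT3 was highest under siRNA-1 (8.50, 8.89 and 8.43). PRMT5, the main symmetric arginine methyltransferase, had the identical value of 9.33 throughout, PRMT1 was 0.05 above control with each siRNA, and PRMT9 was lowest under siRNA-2 (-0.23).

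As a class, the 37 kept writers had medians of 0.00 under siRNA-1 and -0.06 under siRNA-2. With siRNA-2, 23 writers stood below control, 5 above and 9 exactly at it. Of all 7442 kept genes, 3098 stood below control and 2429 above, with a median of 0.00. After median centring the same 23 writers stood below and 14 above (median -0.05, all kept genes 0.01). The 14 are the 5 above as deposited and the 9 ties, which centring moved just above 0. After quantile normalization 20 stood below and 17 above, and the medians of the writers and of all kept genes were -0.01 and 0.05. At 1.5-fold, 0 of the 37 were higher than control, beside 2.24% and 2.19% of all kept genes. The lower call was 1 of 37 (2.70%) with each siRNA, PRMT6 and KAT14, beside 4.60% and 4.00%, so the class's counts are near the background.

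**Figure D2:**
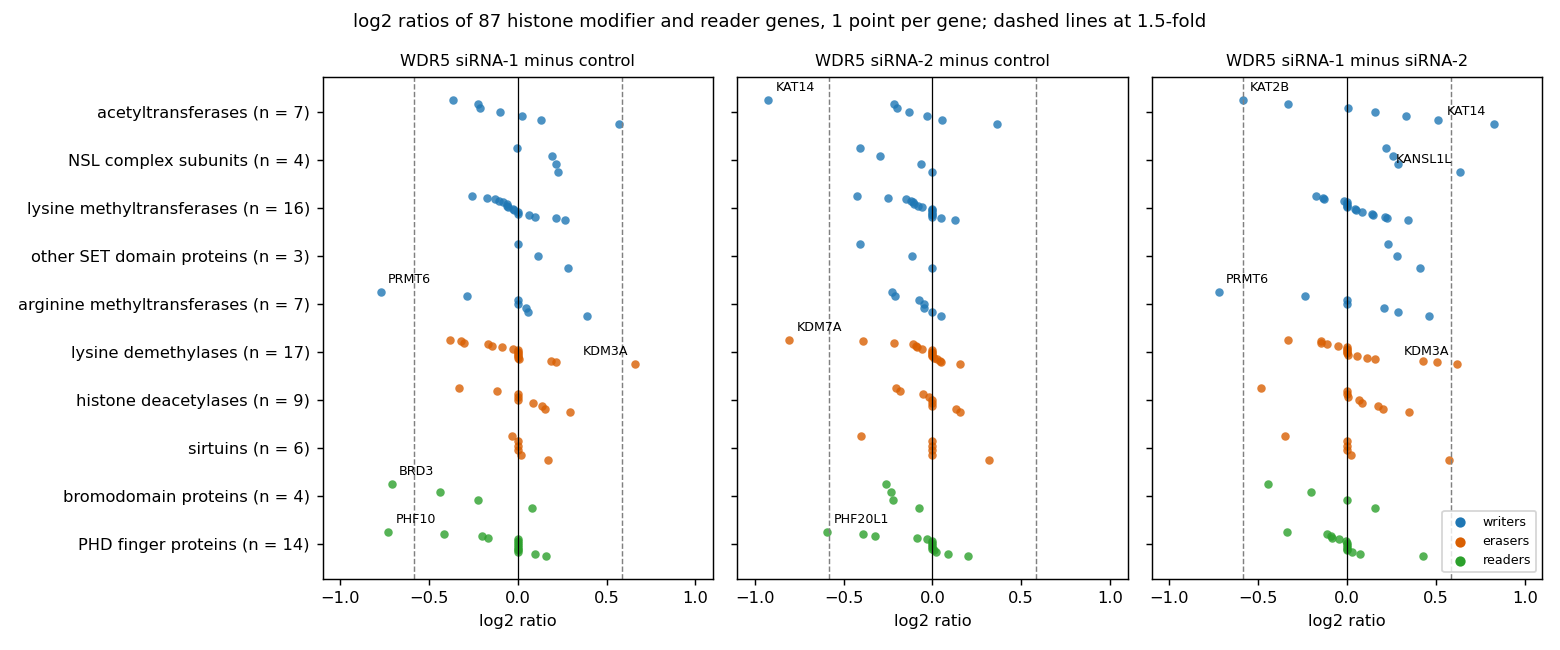
Log2 ratio (horizontal axis) of the 87 kept members with a class, 1 point per gene, by subclass (rows) and comparison (panels). Points are coloured as writer, eraser or reader, with dashed lines at 1.5-fold. NSDHL and PHF5A, which have no class, are not shown. Named points passed the limit, against control from KAT14 at -0.92 under siRNA-2 to KDM3A at 0.66 under siRNA-1, and between the siRNAs up to KAT14 at 0.83, and most others lie within 0.4 of 0.

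Among erasers, the lysine demethylases held both calls. KDM3A, a JmjC enzyme that removes methyl groups from H3 lysines and is known as a hypoxia-inducible gene, read 7.59, 8.25 and 7.63 on the control, siRNA-1 and siRNA-2 arrays. It was 1.58-fold higher under siRNA-1, and the siRNA-2 value lay 0.04 above control. Its paralog KDM3B had ratios of 0.00, an exact tie with control, and -0.11. KDM7A, a PHD and JmjC demethylase of repressive marks, read 8.91, 8.61 and 8.10, which put both WDR5 siRNA arrays below control and the second 1.75-fold below it. Its relatives behaved unlike it and unlike each other. PHF2 read 9.89 with control and 9.50 (to 2 decimals) on each of the other arrays, a ratio of -0.38 and -0.39, while PHF8 read 8.09 on all 3.

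KDM1A (LSD1), which demethylates H3 lysine 4 in the CoREST complex and marked the upper end of the erasers' control levels, read 11.22 under siRNA-1 and 10.79 under siRNA-2. These lay above and below control by log2 ratios of 0.21 and -0.21. KDM1B was highest under siRNA-2 (0.16). The KDM5 enzymes remove the same lysine 4 mark from its trimethylated form: KDM5A had ratios of -0.32 and 0.01, KDM5B of -0.17 and -0.06, and KDM5C of -0.09 with each. KDM6B, a demethylase of the Polycomb mark, had 0.18 and 0.03. KDM2A, KDM2B, KDM4A, KDM4B, KDM4C and KDM8 all lay between -0.15 and 0.05.

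Histone deacetylases had 0 calls among 9 kept members. Of all kept genes 2.24% were called higher and 4.60% lower under siRNA-1, and 2.19% and 4.00% under siRNA-2. A count of 0 among 9 is near those shares and says nothing particular of deacetylases. HDAC1, the catalytic subunit of the SIN3, NuRD and CoREST complexes, read 9.25, 8.92 and 9.41, lowest of its family under siRNA-1 (-0.33) and highest under siRNA-2 (0.15). Its paralog HDAC2 read 7.99, 8.15 and 7.97, so the pair differed from control in opposite directions on the siRNA-1 array. HDAC5 had the highest ratio of the family under siRNA-1 (0.29) and HDAC6, the tubulin deacetylase, the lowest under siRNA-2 (-0.20). HDAC3 (-0.12 and -0.18) and HDAC8 (0.14 and 0.13) were similar on the WDR5 siRNA arrays, and HDAC4 and HDAC7 had 1 value each on all 3.

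The 6 kept sirtuins, NAD-dependent deacylases, had a median ratio of 0.00 with each siRNA. Only SIRT1 and SIRT2 among them differed from control mainly under siRNA-2, in opposite directions. SIRT1 read 10.06, 10.23 and 9.66, and its siRNA-1 value was 1.49-fold above its siRNA-2 value, just short of the limit. SIRT2, mostly cytoplasmic, went the opposite way under siRNA-2 (7.86, 7.83 and 8.18). SIRT6 stayed within 0.02 of control, and SIRT3 (6.79, the lower end of the erasers' control levels), SIRT5 and SIRT7 were identical on all arrays. Over the 32 kept erasers the median was 0.00 in both comparisons with control, 1 (3.12%) was called higher under siRNA-1, beside 2.24% of all kept genes, and 1 lower under siRNA-2, beside 4.00%.

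Readers had calls in the downward direction only, 2 of 18 under siRNA-1 (11.1%, beside 4.60% of all kept genes) and 1 of 18 under siRNA-2 (5.56%, beside 4.00%). PHF10, a PHD finger subunit of the PBAF chromatin remodeller, read 9.84 with control, 9.11 under siRNA-1 and 9.46 under siRNA-2, and was 1.66-fold lower under siRNA-1 and 1.31-fold lower under siRNA-2. BRD7, a bromodomain subunit of the same remodeller, also read lower on both arrays (9.61, 9.17 and 9.38). BRD3, a BET family bromodomain protein, read 9.13, 8.42 and 8.86, 1.64-fold lower under siRNA-1 and 1.20-fold lower under siRNA-2. The other BET gene kept, BRD2, read 8.89 and then 8.66 on each WDR5 siRNA array. BRD8, of the NuA4 acetyltransferase complex, stayed within 0.08 of control. The 4 bromodomain genes had medians of -0.33 and -0.23. Of these genes 3 under siRNA-1 and 4 under siRNA-2 stood below control, beside 2845 and 3098 of all 7442 kept genes. The counts did not alter under quantile normalization or median centring. They rest on only 4 genes and 1 shared control array, so they do not establish a direction for the class.

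PHF20L1, a methyl-lysine reader, read 8.94, 8.77 and 8.34 and was 1.51-fold lower under siRNA-2. That call was lost after quantile normalization (-0.54) and after median centring (-0.58). Its paralog PHF20, a subunit of the NSL complex, had ratios of 0.00 and -0.03. The Polycomb-like proteins, which bind PRC2, differed: PHF19 read 8.71, 8.29 and 8.38, while PHF1 had ratios of 0.00 and 0.09. For PHF1, 3 probe sets gave siRNA-1 ratios from -0.18 to 0.00 and siRNA-2 ratios from -0.12 to 0.09, so its direction is uncertain. PHF23 had the highest ratios among the PHD finger genes (0.16 and 0.20), PHF13 had -0.20 and -0.09, PHF3 was within 0.01 and PHF21A within 0.10 of control. PHF6 (10.77), PHF7 (6.94), PHF12, PHF14 and PHF21B were identical on all arrays, and the first pair are the ends of the readers' control levels.

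For 2 members the symbol gives neither a writer, an eraser nor a reader. NSDHL, an enzyme of cholesterol synthesis whose symbol only begins like those of the NSD methyltransferases, read 10.77, 11.07 and 11.42 and was 1.57-fold higher under siRNA-2. Without it no member was called higher under siRNA-2. PHF5A, a subunit of the splicing factor SF3b, had a ratio of -0.02 with each siRNA.

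Below the filter were 7 members, at levels of 5.04 to 6.97: KDM4D, KDM4E, HDAC10, HDAC11, SIRT4, PRMT8 and PHF24. KDM4D, a testis-enriched demethylase, read 6.97, 6.85 and 5.89, a 2.10-fold lower value under siRNA-2 at a level that lies within the range of the background rows. The other 6 were within a log2 ratio of 0.37 of control, and HDAC11 and PRMT8 were identical throughout.

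**Figure D3:**
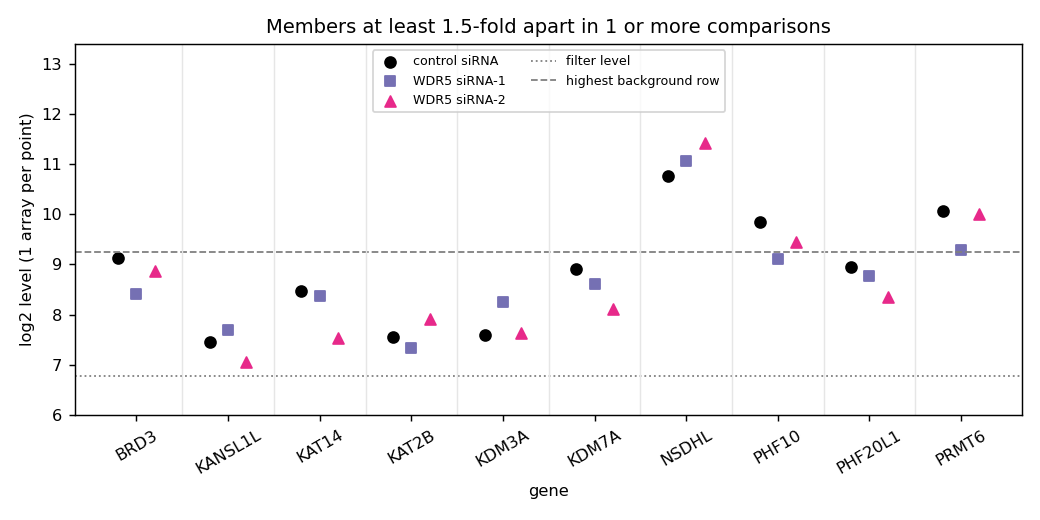
Log2 level (vertical axis) of the 10 members at least 1.5-fold apart in 1 or more of the 3 comparisons, with 1 point per array. NSDHL stays above the highest background row (dashed, 9.26) on all arrays, as does PRMT6, and the other 8 lie partly or wholly below it.

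Compared directly, the WDR5 siRNAs differed by 1.5-fold in 5 members. KAT14 (1.77-fold), KANSL1L (1.55-fold) and KDM3A (1.53-fold) were higher under siRNA-1 than under siRNA-2, 3 of 89 members against 4.21% of all kept genes. PRMT6 (1.65-fold) and KAT2B (a log2 difference of -0.59) were lower, 2 of 89 against 4.65%. The KDM3A call was lost after quantile normalization (0.57). The same step left the writers' median of siRNA-1 over siRNA-2 positive, at 0.14 as deposited and 0.10 after it, beside medians of all kept genes of 0.00 and -0.03. By subclass, medians as deposited were 0.27 for NSL subunits and 0.28 for other SET domain proteins. Those of acetyltransferases, lysine methyltransferases and arginine methyltransferases were 0.16, 0.02 and 0.00. With the filter raised to the 75th percentile the writers' median was 0.05. Erasers and readers had medians of 0.00 as deposited, and of 0.09 and 0.00 with that filter, so the erasers' median was then above the writers'.

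Upstream sequence was examined for the members that passed the limit, because binding sites of MYC family proteins are of interest in a MYCN-amplified line. The E-box CACGTG and its variant CACGCG (or CGCGTG on the other strand) were searched on both strands in the 250 bases before the RefSeq start of each gene (GRCh38.p14), in windows found for 86 of the 96 members. CACGTG was present in 9 of the 86 (10.5%) and in 6.49% of all 27305 promoters, or 7.84% of the 15842 of protein-coding genes. CACGCG was present in 12 (14.0%), against 9.62% and 12.6%. The members' windows are also richer in G and C (median 66.6%) than those of protein-coding genes (62.4%). Of the 10 members past 1.5-fold, 9 had a window, 0 of them held CACGTG and 1, NSDHL, held CACGCG. The windows, 5′ to 3′, are those of the lowest writers and readers under siRNA-1, of the lowest writer and eraser under siRNA-2 and of KDM3A, followed by SIRT1 as a member with E-boxes, which are in capitals.
PRMT6 (chr1:107056424-107056673, plus strand): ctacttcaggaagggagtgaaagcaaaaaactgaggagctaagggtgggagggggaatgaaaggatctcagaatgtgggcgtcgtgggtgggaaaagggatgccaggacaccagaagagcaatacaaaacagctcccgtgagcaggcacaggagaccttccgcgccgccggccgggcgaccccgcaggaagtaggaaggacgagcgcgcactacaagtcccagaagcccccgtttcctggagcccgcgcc
PHF10 (chr6:169724501-169724750, minus strand): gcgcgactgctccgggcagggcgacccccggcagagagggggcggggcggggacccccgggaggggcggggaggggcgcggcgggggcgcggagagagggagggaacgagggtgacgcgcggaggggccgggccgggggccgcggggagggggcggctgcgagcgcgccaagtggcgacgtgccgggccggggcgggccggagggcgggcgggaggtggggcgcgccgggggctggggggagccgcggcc
KAT14 (chr20:18144849-18145098, plus strand): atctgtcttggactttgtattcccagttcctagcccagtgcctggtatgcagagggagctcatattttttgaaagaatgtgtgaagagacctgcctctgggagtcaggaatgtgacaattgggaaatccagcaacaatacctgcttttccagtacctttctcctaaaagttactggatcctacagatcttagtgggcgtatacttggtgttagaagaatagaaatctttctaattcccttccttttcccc
KDM7A (chr7:140176984-140177233, minus strand): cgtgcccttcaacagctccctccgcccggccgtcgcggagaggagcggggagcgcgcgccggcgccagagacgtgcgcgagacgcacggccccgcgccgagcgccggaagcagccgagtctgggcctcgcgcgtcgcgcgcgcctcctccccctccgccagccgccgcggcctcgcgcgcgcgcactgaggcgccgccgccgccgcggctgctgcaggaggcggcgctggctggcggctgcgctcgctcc
KDM3A (chr2:86441121-86441370, plus strand): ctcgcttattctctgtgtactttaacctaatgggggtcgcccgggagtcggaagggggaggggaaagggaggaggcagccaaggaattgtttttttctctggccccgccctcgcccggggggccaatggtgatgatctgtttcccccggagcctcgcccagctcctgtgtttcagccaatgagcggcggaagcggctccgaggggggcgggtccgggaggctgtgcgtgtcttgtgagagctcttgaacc
SIRT1 (chr10:67884406-67884655, plus strand): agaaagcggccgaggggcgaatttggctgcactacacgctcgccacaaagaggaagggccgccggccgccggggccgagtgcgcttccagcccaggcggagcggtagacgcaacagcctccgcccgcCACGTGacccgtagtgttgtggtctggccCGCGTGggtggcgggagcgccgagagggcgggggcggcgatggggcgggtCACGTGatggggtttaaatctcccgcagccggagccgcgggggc
The windows differ in composition: PHF10 and KDM7A are 86.4% and 81.6% G and C, while that of KAT14 is 43.2%. SIRT1 holds CACGTG beginning 123 and 44 bases before the start and CGCGTG beginning 94 bases before it. A match of letters does not show binding, and a window without one says nothing of other sites.

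Members of 3 complexes were set beside their partners, in a grouping chosen after the values were seen. In the NSL complex, besides KAT8 and the KANSL genes, HCFC1 read 10.67 and then 10.36 on each WDR5 siRNA array. OGT, the O-GlcNAc transferase, was lower under siRNA-1 (11.18, 10.66 and 11.18), and its siRNA-2 value tied exactly with control. MCRS1 was higher under siRNA-2 (0.18), and its siRNA-1 value tied exactly with control. A tie is not a measured lack of change, so neither difference can be called particular to 1 siRNA. In the ATAC complex, TADA3, an adaptor shared with SAGA, read 7.95, 7.28 and 7.58 and was 1.59-fold lower under siRNA-1. TADA2A had ratios of -0.15 and -0.26, YEATS2, an acetyl-lysine reader, of 0.14 and 0.26, and SGF29 and MBIP were higher than control under siRNA-1 only (0.26 and 0.19). In PRC2, SUZ12, the core scaffold, read 11.46, 10.57 and 11.38 and was 1.86-fold lower under siRNA-1. RBBP4 was instead lower under siRNA-2 (10.77, 10.86 and 10.21), the array on which EZH2 was also lowest. Other PRC2 genes differed from this pattern, among them MTF2, a Polycomb-like subunit that was highest under siRNA-2 (9.51, 9.63 and 9.83), and AEBP2, identical on all arrays.

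**Figure D4:**
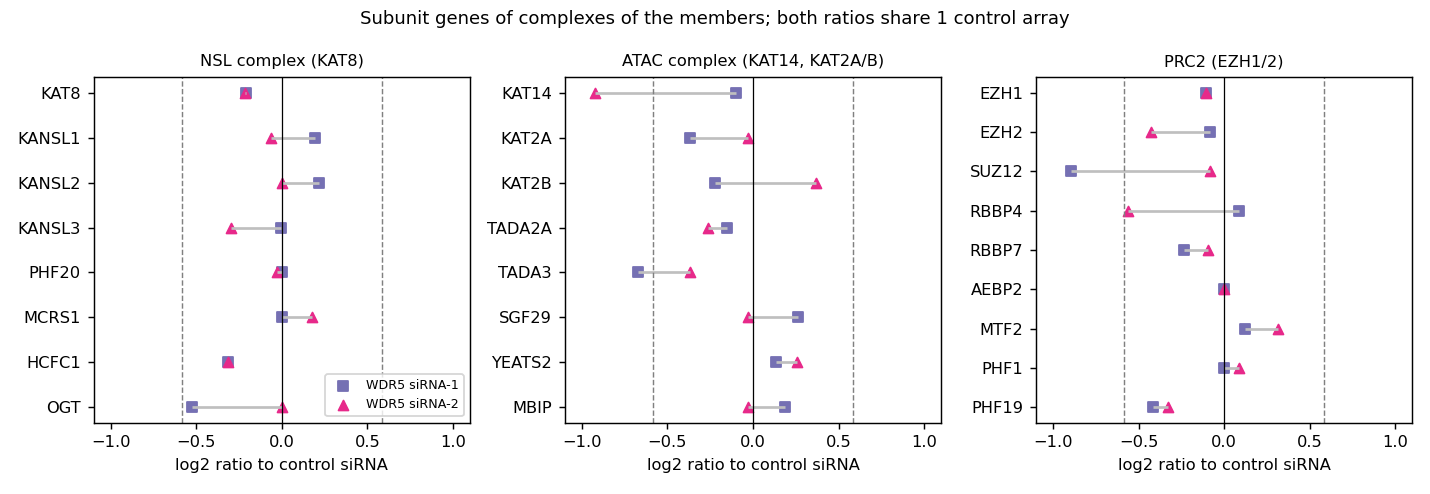
Log2 ratio to control (horizontal axis) for subunit genes (rows) of the NSL, ATAC and PRC2 complexes, with 1 square for siRNA-1 and 1 triangle for siRNA-2. SUZ12 (-0.89) and TADA3 (-0.67) pass 1.5-fold under siRNA-1 and KAT14 (-0.92) under siRNA-2.

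Related chromatin genes outside the symbol rule were listed from general knowledge. Of 124 listed, 78 were kept. DMAP1, CBX7 and L3MBTL1 fell below the filter, and the others left out were not among the named genes of the array. Of the 78, 0 were called higher with either siRNA, 5 lower under siRNA-1 (6.41% of 78) and 3 lower under siRNA-2 (3.85%). The shares of all kept genes were 2.24% and 2.19% higher and 4.60% and 4.00% lower, so the lower counts are near the background. Among the 9 kept writers, CARM1, the arginine methyltransferase also known as PRMT4, read 10.52, 9.89 and 9.65 and was 1.55-fold and 1.82-fold lower. HAT1, which acetylates newly made histone H4, was 1.60-fold lower under siRNA-1 and 1.16-fold lower under siRNA-2. EP300 and CREBBP, the large general acetyltransferases, had ratios from -0.22 to 0.07. Of 28 kept acetyltransferase partners, TADA3 was lower under siRNA-1 and MORF4L1, a chromodomain protein of the NuA4 complex, was 1.71-fold lower under siRNA-2. Of 5 kept PRC2 partners SUZ12 alone passed the limit against control.

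The eraser complexes held 20 kept genes and 1 call against control, a lower one under siRNA-2 (5.0%, beside 4.00% of all kept genes). It was MBD2 of the NuRD complex, which read 9.25, 9.33 and 8.61 and was 1.56-fold lower under siRNA-2. SIN3A, the scaffold that carries HDAC1 and HDAC2, read 9.97, 10.25 and 9.47, so that siRNA-1 and siRNA-2 lay on opposite sides of control and 0.78 apart. Among 16 kept readers, CBX1, a heterochromatin protein 1 gene, was 1.62-fold lower under siRNA-1 (9.15, 8.46 and 8.93), and SPIN1, a reader of H3 lysine 4 methylation, stood 0.63 higher under siRNA-1 than under siRNA-2 (11.49, 11.92 and 11.29). Across these lists 5 genes were at least 1.5-fold higher (MBD2, RBBP4, SIN3A, SPIN1 and SUPT3H) and 1 lower (SUZ12) under siRNA-1 than under siRNA-2. These are 6.41% and 1.28% of 78, beside 4.21% and 4.65% of all kept genes.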

How the data were processed

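Expression was measured in 3 cultures, 1 array each. The authors deposited a value table of 53617 probe sets, read here as log2 from its range of 1.34 to 14.87, since no scale is stated. MAS5 is named in the submitters' processing notes without its role. Background correction, normalization and probe summary are not given in the sources used here. Array medians were 5.81, 5.79 and 5.79, and no scaling was added. A platform annotation named 16098 rows. RefSeq identifiers gave all 96 members the same current symbols. The probe set with the highest mean stood for a gene (5 members have several). Log2 differences and 1.5-fold counts were computed in Python 3.11.15 with pandas 2.3.3, and simulated data were used to test the counting. No p-value was computed, and the number of arrays limits the precision.

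Named with values are members at 1.5-fold in any comparison, the extremes of each subclass against control, the ends of each class's control levels, and members whose symbol and role differ. Listed genes outside the rule are named at 1.5-fold. Others named, among them paralogs and complex partners, were chosen after their values were seen. Members and lists were chosen with earlier results of these data known.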

Additional observations from a re-analysis of the deposited data

Results flagged for a closer look

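Some of the members named by rule stood on opposite sides of control with the WDR5 siRNAs, as did members outside that rule such as HDAC2, KANSL1, KAT7 and SETD2. With 1 array per siRNA and a shared control the difference was not tested, and many named members were picked as the extremes of their subclass. Given as the log2 ratio under siRNA-1 minus that under siRNA-2, the differences at 1.5-fold were 0.63 for KANSL1L and -0.59 for KAT2B. Below that limit, SIRT1 was at 0.58, PRMT3 at 0.46, KDM1A at 0.43, HDAC5 at 0.35, PRMT9 at 0.29, SETD3 at 0.23 and BRD8 at 0.16. HDAC1 was at -0.48 and SIRT2 at -0.35.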

How the results depend on the processing

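The called members, 1 higher and 3 lower with each siRNA and 3 higher and 2 lower between them, were recounted under 9 alternatives, which gave 54 counts. Of these, 39 stayed within 1.5 times the count reported and 15 did not. With the 75th percentile filter, 46 members were left and the higher count was 0 for siRNA-1 against control, while siRNA-1 against siRNA-2 gave 0 higher and 1 lower. At a limit of 0.32 on the log2 scale the counts were 3 higher and 9 lower under siRNA-1, 2 higher and 10 lower under siRNA-2, and 13 higher and 9 lower between the siRNAs, beside 7.90%, 12%, 6.65%, 11.2%, 12.7% and 11.3% of all kept genes. At 2-fold all 6 counts were 0, for want of any kept member that far apart. All 63 medians of the classes and all 351 log2 ratios of the named members moved by less than 0.1, and so did the 6 of WDR5. The alternatives run for them were of scaling, filter, probe set, symbol and membership. Much of this was fixed in advance. Each named member has 1 probe set, so the 117 ratios from the mean of probe sets repeat those reported, and WDR5 did not change there either. Another 117 come from median centring, which adds 0.0124 under siRNA-1, 0.0118 under siRNA-2 and 0.0007 between them to every gene. The symbol alternative renamed none of the 96 members. These counts therefore do not measure stability. The class medians as deposited lay only between -0.06 and 0.14, so a limit of 0.1 cannot show that they were stable. Within it, the writers' median of siRNA-1 over siRNA-2 fell from 0.14 to 0.05 with the 75th percentile filter. Quantile normalization moved the median ratio of all kept genes to 0.03 under siRNA-1 and 0.05 under siRNA-2, so a class median is read beside that of all kept genes under the same scaling. With protein-coding genes alone as background, the shares called were 2.24% higher and 4.68% lower under siRNA-1, and 2.21% and 3.82% under siRNA-2. Signal over background limits 66 of the 89 kept members, whose mean lay below the highest background row.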
